A study of Mus musculus with 24 samples.

Results

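The lungs of C3H/HeOuJ (OuJ) mice after 48 h of ozone were compared with lungs of OuJ mice that breathed air. The arrays were taken by their titles alone, 3 of ozone-exposed mice and 3 of air-exposed mice, 6 of the 24 arrays in the series. OuJ mice carry a sufficient Tlr4, while the related strain C3H/HeJ (HeJ) carries a dominant negative form of this receptor. All mice were male, each gave 1 left lung lobe, and each lobe was hybridized to 1 Affymetrix array, so the 3 arrays of a group are 3 individual mice. The other groups of the series are OuJ after 6 and 24 h of ozone and HeJ in air and after 6, 24 and 48 h, with 3 mice each. No source used here gives the ozone concentration or the age of the mice. An exposure of 72 h, which the treatment protocol names, was not analysed here.

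Ozone is an oxidant gas that reacts with the airway lining fluid and with the membranes of airway and alveolar cells. Cells whose proteins are damaged raise heat shock proteins, chaperones that refold proteins in the cytosol, while misfolded proteins in the endoplasmic reticulum (ER) raise ER chaperones through the unfolded protein response. Injured epithelium is replaced by division of surviving progenitor cells, and in the lung these are mainly club cells of the airways and alveolar type 2 cells. Tlr4 is a membrane receptor that signals through NF-kB when it meets bacterial lipopolysaccharide or products of injured tissue.

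The median signal of the 6 arrays lay between 221.7 and 229.3, and a signal below 16 was given by 8.69% to 10.0% of probe sets per array. Arrays of the same group correlated at a Pearson r of 0.971 to 0.980, and arrays of different groups at 0.942 to 0.962. These values are over the 8008 genes that met a filter on low values, a description since genes are no replicates. RNA quality was read from the 5′ signal over the 3′ signal of control genes, which was 0.843 ± 0.0798 in air and 0.894 ± 0.114 after ozone for Gapdh and 0.869 ± 0.0214 and 0.916 ± 0.0279 for actin (SD, n = 3). All 13 lung markers were on the array and were measured in the 6 arrays, among them surfactant protein C (Sftpc, 27216 to 39639 in air and 30587 to 36655 after ozone). Sample codes of the OuJ air mice start with 3 and those of the OuJ 24 and 48 h mice with 10, so that this code series and exposure cannot be told apart in the comparison with air. In whole lung tissue, fewer cells of a type and less RNA per cell cannot be told apart either. Precision is limited by the 3 arrays per group.

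Of 8008 genes tested, 633 (7.9%) passed in OuJ lung at 48 h, 296 higher (3.7%) and 337 lower (4.21%) than in air. Changes are differences in log2(signal + 16) between group means, given ± SE with 3 arrays per group, a scale that understates the change of genes with low signals. A gene passed, and is said to have risen or fallen, at an adjusted p under 0.05 from limma's moderated test. The median change of all genes was -0.02. The shares of all genes that passed, 3.7% higher and 4.21% lower, are the background for the list counts below. The 3 ozone arrays all lay on 1 side of the 3 air arrays for 2393 genes (29.9%), 1005 of them higher (12.5%) and 1388 lower (17.3%), and for 628 of the 633 genes that passed. Large rises outnumbered large falls: 78 of the genes that passed rose by more than 1 on the log2 scale and 29 fell by more than 1, and 11 rose by more than 2. At an unadjusted p under 0.05 there were 1716 genes. Where leaving out 1 array ended the call of a named list member or of 1 of the 12 largest rises and falls, that array stands beside it. If several did, the array whose removal gave the highest adjusted p is given. Many of these calls were also lost without other arrays. Those of Kdr, Cd36, Col4a4 and Tk1, for example, were each lost without any 1 of 5 arrays. Other called genes are given without this check. The count of 633 was 286 without the third 48 h array, 393 to 420 without any 1 of the air arrays and 422 without the first 48 h array.

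**Figure D1:**
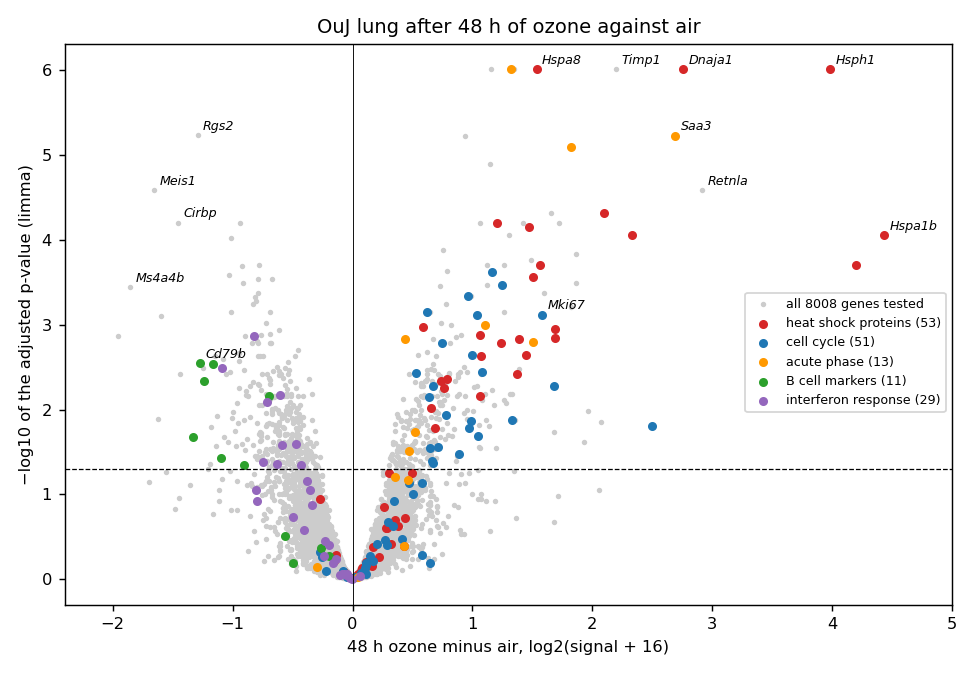
Each point is 1 of the 8008 genes tested, with its change after 48 h of ozone in OuJ lung on the log2(signal + 16) scale along the horizontal axis and the negative log10 of the limma adjusted p on the vertical axis. The dashed line is an adjusted p of 0.05, and colours mark 5 groups of gene lists with the number of genes measured in each. The 3 points farthest to the right are heat shock genes, up to Hspa1b at 4.43, while others of these lists lie near or left of 0, such as Bag1 at -0.27, and the 11 B cell markers all lie to the left of 0.

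The 12 largest rises among genes that passed with no overlap between groups were those of Hspa1b, Hspa1a, Hsph1, Retnla, Dnaja1, Saa3, Cdk1, Dnajb1, Timp1, Chordc1, Nfil3 and Zbtb16, from 4.43 down to 1.96. Of these, 5 belong to the Hsp70 chaperone machine and Chordc1 to the Hsp90 system. Cdk1 met the filter on low values only through 48 h arrays, so it was selected in part for being high there. The 12 largest falls were those of Ighv14-2, Ms4a4b, Meis1, Dbp, Lst1, Cirbp, S100a9, Cd37, Rgs2, Cd79b, Tnfsf10 and Fcer2a, from -1.95 to -1.24. Several of these are lymphocyte genes: an immunoglobulin heavy chain segment, the B cell surface proteins Cd37, Cd79b and Fcer2a, and Ms4a4b of T cells. Of the 24 genes, 17 passed in all 18 alternative analyses and 3 more, Ighv14-2, Tnfsf10 and Fcer2a, in 17, being below the filter in the one that filtered on the mean signal. The exceptions were Cdk1 (adjusted p = 0.0681 without the third 48 h array and 0.0913 without the third air array), Nfil3 (0.0592 to 0.0925 without the first air array or either the first or the third 48 h array), Dbp (0.100 without the first 48 h array) and Cd37 (0.0726 to 0.0960 without the first or second array of either group).

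**Figure D2:**
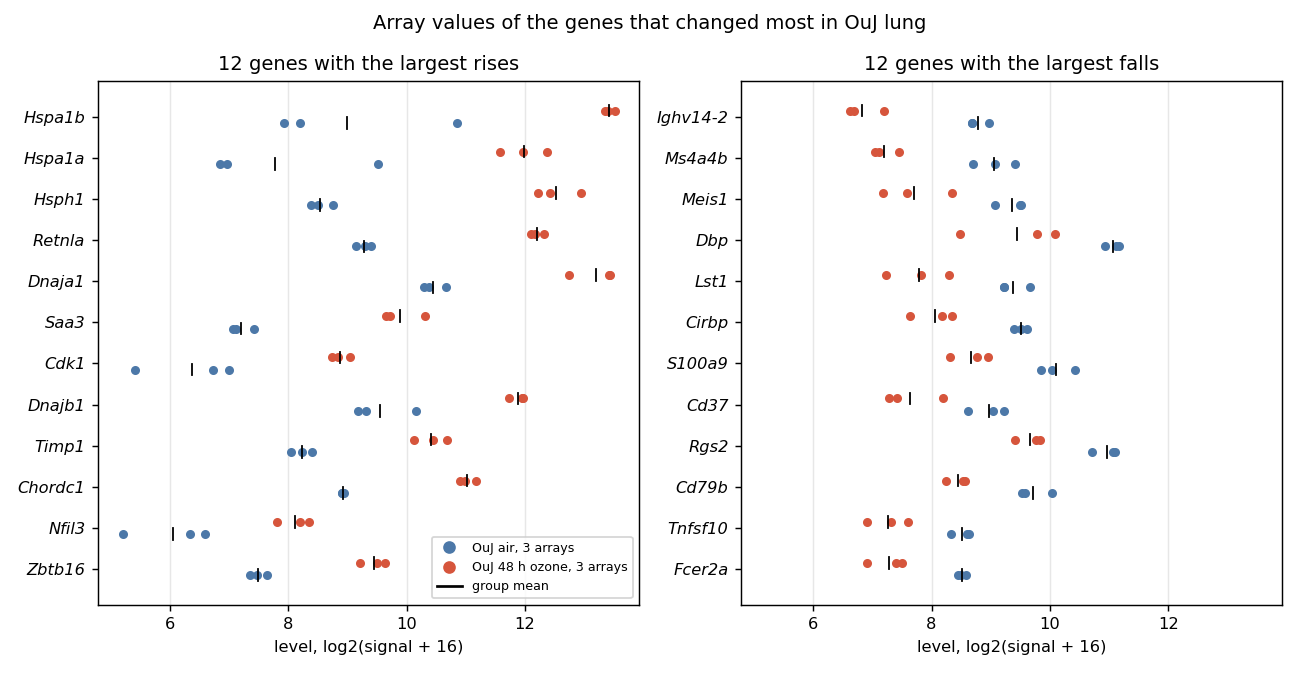
Levels, as log2(signal + 16), of the 12 genes with the largest rises (left) and the 12 with the largest falls (right), where each point is 1 mouse and the black bar is the group mean. The 3 ozone arrays lie beyond all 3 air arrays for each gene because the genes were chosen by this rule. For Hspa1b and Hspa1a 1 air mouse stands above the other air mice.

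The cytosolic Hsp70 machine comprises the Hsp70 ATPases, the J-domain proteins that bring them clients, and the exchange factors that release ADP. After 48 h of ozone 14 of its 24 measured genes rose and 0 fell, with a median of 0.91. The inducible Hsp70 gene Hspa1b gave signals of 276, 227 and 1821 in air and 10773, 10389 and 11661 after ozone, a rise of 4.43 ± 0.62 (21.6-fold, adjusted p = 8.72e-05). Its near-identical copy Hspa1a gave 109, 99.5 and 713 in air and 4000.0, 3050.4 and 5303 after ozone and rose by 4.20 ± 0.63 (adjusted p = 0.000195). Since probe sets for such copies may each detect both, their separate values are uncertain. The third air mouse had by far the highest level of both genes among the air mice, and without it the rises were 5.36 and 5.07. The exchange factor Hsph1 gave 345, 316 and 417 in air and 5472, 4749 and 7835 after ozone and rose 15.8-fold (3.98 ± 0.39, adjusted p = 9.76e-07). All 3 ozone mice lay far above the air mice for Hsph1, and the air mice were close together.

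The J-domain proteins rose by 2.76 ± 0.28 for Dnaja1, 2.33 ± 0.33 for Dnajb1, 1.24 ± 0.23 for Dnaja4 and 1.06 ± 0.19 for Dnajb4. Dnajb1 signals were 565, 620.2 and 1129 in air and 3988, 3382 and 3929 after ozone, and the groups did not overlap. The constitutive Hsp70 gene Hspa8 went from 5722, 6936 and 7750.5 to 19991, 19341 and 19414 (1.53 ± 0.15, adjusted p = 9.76e-07). Its 4 kept probe sets differed in sign, from -0.30 to 1.70. Stip1, which hands clients from Hsp70 to Hsp90, rose by 1.56 ± 0.23, the exchange factor Bag3 by 1.69 ± 0.30 and the Hsp110 family gene Hspa4l by 1.47 ± 0.20. St13, a cochaperone of Hsp70, rose by 1.07 ± 0.24. The genes of the machine that did not pass included Hspa4 (0.22 ± 0.18), Dnaja2 (0.28 ± 0.14), the ubiquitin ligase Stub1 (-0.14 ± 0.11) and Bag1 (-0.27 ± 0.10).

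Of the Hsp90 system 5 of 7 measured genes rose, with a median of 1.21. Chordc1, an Hsp90 cochaperone, gave 476, 462 and 467 in air and 2011, 1888 and 2281 after ozone, with the air mice close together, and rose by 2.10 ± 0.27 (adjusted p = 4.8e-05). Hsp90aa1, the inducible Hsp90 gene, rose by 1.21 ± 0.16, and the activators of its ATPase, Ahsa1 and Ahsa2, by 1.07 ± 0.21 and 1.69 ± 0.31. The immunophilin Fkbp4 rose by 1.38 ± 0.25, while the kinase-specific cochaperone Cdc37 gave -0.06 ± 0.13 and did not pass. Of the small heat shock proteins 2 of 5 rose, Hspb1 from 7394, 5673 and 8726 to 19495, 15849.5 and 23868 (1.44 ± 0.28) and Hspb8 (0.69 ± 0.18), and the crystallin Cryab gave -0.07 ± 0.14 and did not pass. Among 9 mitochondrial chaperones the chaperonin Hspd1 (1.50 ± 0.23) and its lid Hspe1 (1.37 ± 0.28), whose genes share a bidirectional promoter, rose, and the mitochondrial Hsp70 Hspa9 gave 0.44 ± 0.20 without passing. The cytosolic CCT chaperonin, which folds actin and tubulin, had 3 of 8 subunits higher (Cct6a, 0.78 ± 0.16, Cct7, 0.65 ± 0.15, and Cct4, 0.59 ± 0.10), with a median of 0.44, and the kept probe sets of Cct4 ran from -0.01 to 0.59. Of the heat shock factors that switch these genes on, Hsf2 was below the filter on low values, and Hsf1 was not analysed here. In the heat shock factor list 2 other genes were measured, 0 rose and 0 fell, and the median was -0.19. These values do not describe Hsf1 or Hsf2. Cirbp, an RNA-binding protein that is induced by cold, moved the other way, from 659, 764 and 716 to 311, 183 and 273 (-1.45 ± 0.19, adjusted p = 6.24e-05). The number of genes higher was 14 or 15 for the Hsp70 machine and 5 for the Hsp90 system in all 18 alternatives. Hspb8 lost its call without the third 48 h array (adjusted p = 0.133). Cct7 lost its call without the first air array (adjusted p = 0.0723).

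Hsf1 binds inverted repeats of the bases GAA, the heat shock element. The 3 promoters below are those of the genes with the smallest p among risen chaperone genes whose window holds 3 such repeats in a row, and capitals mark the repeats. Each runs 5′ to 3′ along the gene, from 250 bases before to 50 bases after the start of a RefSeq transcript (GRCm38.p6). Hsph1 lies at chr5:149636287-149636586 on the minus strand, Chordc1 at chr9:18292017-18292316 on the plus strand and Hspd1 at chr1:55087883-55088182 on the minus strand.
Hsph1: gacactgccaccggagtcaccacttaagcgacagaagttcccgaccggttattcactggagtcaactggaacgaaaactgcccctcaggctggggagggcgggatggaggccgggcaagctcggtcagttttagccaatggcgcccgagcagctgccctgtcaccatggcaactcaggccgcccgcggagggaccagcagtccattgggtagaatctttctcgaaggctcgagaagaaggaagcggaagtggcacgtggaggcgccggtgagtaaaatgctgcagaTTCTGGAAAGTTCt
Chordc1: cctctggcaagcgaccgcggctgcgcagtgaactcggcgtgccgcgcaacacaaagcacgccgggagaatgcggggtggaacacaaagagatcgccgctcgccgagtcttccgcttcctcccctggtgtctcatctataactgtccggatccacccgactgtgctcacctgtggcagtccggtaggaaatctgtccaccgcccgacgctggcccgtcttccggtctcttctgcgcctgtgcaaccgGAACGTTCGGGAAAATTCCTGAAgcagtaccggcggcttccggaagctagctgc
Hspd1: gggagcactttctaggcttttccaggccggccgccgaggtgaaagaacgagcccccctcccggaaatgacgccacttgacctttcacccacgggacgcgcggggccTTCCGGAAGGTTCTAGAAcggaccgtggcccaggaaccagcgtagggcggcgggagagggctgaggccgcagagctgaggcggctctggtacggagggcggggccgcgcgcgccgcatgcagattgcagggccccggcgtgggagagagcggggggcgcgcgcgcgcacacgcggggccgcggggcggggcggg
The letters searched were GAA, TTC and GAA, or TTC, GAA and TTC, each separated by 2 bases of any kind. The orders are reverse complements of each other, so that both strands are covered. Overlapping matches in Chordc1 and Hspd1 are joined in 1 run of capitals. They occur in 198 of 32851 RefSeq promoters of this length (0.603%) and in 0.632% of the tested genes that have such a promoter. They were found in 4 of 22 risen genes of the 5 chaperone lists that have such a promoter, Hsph1, Chordc1, Hspd1 and Hspe1, and in 1 of 24 that did not rise, Dnajb6. Since Hspd1 and Hspe1 share a bidirectional promoter, their matches may be the same bases. A match describes the sequence only.

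In the ER, chaperones and folding enzymes rose in 7 of 18 cases and fell in 0, with a median of 0.40. The ER Hsp70 protein Hspa5 (BiP) gave 5622, 5776 and 5209 in air and 12942, 13702 and 15649 after ozone, with all ozone mice far above the air mice, and rose by 1.34 ± 0.13 (adjusted p = 9.76e-07). Manf, a secreted ER stress protein, rose by 1.30 ± 0.18 from 1117, 1075 and 1041 to 2788, 2179.8 and 3168, and the groups were again far apart. Creld2 (0.89 ± 0.18), the J-domain proteins Dnajb9 (0.79 ± 0.18) and Dnajb11 (0.73 ± 0.17), the ER protein Sdf2l1 (0.83 ± 0.22) and the disulfide isomerase Pdia6 (0.57 ± 0.13) rose too. The lectin chaperone Calr (0.27 ± 0.14) and the ER Hsp90 gene Hsp90b1 (0.35 ± 0.16), of the same compartment, did not pass. Of 11 genes of ER-associated degradation only Herpud1, which helps to assemble the ligase complex, rose (0.87 ± 0.16). Dnajb11 lost its call without the third 48 h array (adjusted p = 0.0616). Sdf2l1 lost its call without the first air array (adjusted p = 0.16).

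Among transcription factors of the unfolded protein response and targets of ATF4, 6 of 19 rose and 0 fell, with a median of 0.49. Ddit3 (CHOP) went from 376, 545 and 392 to 850.1, 789 and 835 (0.91 ± 0.16, adjusted p = 0.00132), and the groups did not overlap. Atf3 (1.33 ± 0.29), Xbp1 (0.60 ± 0.13), Atf4 (0.55 ± 0.14), the amino acid transporter chain Slc3a2 (0.49 ± 0.12) and the serine synthesis enzyme Psat1 (0.70 ± 0.21) also rose. The asparagine synthetase Asns, a target of ATF4 in cultured cells, gave 0.12 ± 0.14. The number higher in this list was 3 without the third 48 h array. Other parts of protein turnover did not pass: 0 of 14 genes of the 20S proteasome core, 0 of 17 of its 19S cap, 0 of 12 of the ubiquitin and autophagy list and 0 of 33 cytosolic ribosomal proteins were called, with medians of -0.04, 0.09, -0.02 and -0.02. At an unadjusted p under 0.05 limma gave 0, 1, 1 and 2 genes in these lists. Atf3 lost its call without the first air array (adjusted p = 0.0535). Atf4, Slc3a2 and Psat1 lost their calls without the third 48 h array (adjusted p = 0.114, 0.0644 and 0.115). The call of Psat1 was lost without any 1 of the 6 arrays.

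Promoters of ER stress genes can hold an ER stress response element, CCAAT and CCACG separated by 9 bases of any kind, or a shorter form, ATTGG and CCACG separated by 1 base. ATF6 and XBP1 bind such elements together with NF-Y. The first is shown for the ER chaperone genes Hspa5 (chr2:34771840-34772139 on the plus strand) and Creld2 (chr15:88819396-88819695 on the plus strand), and the second for Herpud1 (chr8:94386179-94386478 on the plus strand), with the match in capitals and the same window and build. In Creld2 the match lies on the opposite strand.
Hspa5: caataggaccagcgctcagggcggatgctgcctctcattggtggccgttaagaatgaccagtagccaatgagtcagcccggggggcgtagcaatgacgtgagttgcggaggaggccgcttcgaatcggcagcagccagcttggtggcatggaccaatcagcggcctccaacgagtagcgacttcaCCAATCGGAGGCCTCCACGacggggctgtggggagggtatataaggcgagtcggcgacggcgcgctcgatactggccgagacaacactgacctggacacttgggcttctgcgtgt
Creld2: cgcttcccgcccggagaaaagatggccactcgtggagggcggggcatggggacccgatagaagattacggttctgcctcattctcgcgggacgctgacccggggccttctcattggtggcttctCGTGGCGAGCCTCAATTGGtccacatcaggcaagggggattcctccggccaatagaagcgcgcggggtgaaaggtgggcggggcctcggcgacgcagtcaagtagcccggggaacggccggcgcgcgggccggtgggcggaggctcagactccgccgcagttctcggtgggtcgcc
Herpud1: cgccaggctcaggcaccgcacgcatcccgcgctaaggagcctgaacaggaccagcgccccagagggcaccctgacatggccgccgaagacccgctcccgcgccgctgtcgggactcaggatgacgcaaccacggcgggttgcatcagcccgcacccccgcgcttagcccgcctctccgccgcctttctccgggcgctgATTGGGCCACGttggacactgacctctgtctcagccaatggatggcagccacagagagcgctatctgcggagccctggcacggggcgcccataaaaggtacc
The first form was in 0.119% of the 32851 promoters, searched on both strands, in 3 of 13 risen genes of the 3 ER lists with a promoter (Hspa5, Creld2 and Pdia6) and in 7 of 29 that did not rise, among them Calr and Hsp90b1. The second was in 0.0365% of promoters, in 2 of the 13 (Herpud1 and Dnajb11) and in 0 of the 29.

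Of the mitotic cyclins and kinases 9 of 11 measured genes rose and 0 fell, with a median of 0.96, and of the spindle, kinetochore and cytokinesis genes 8 of 14 rose and 0 fell, with a median of 0.65. Cdk1, the kinase that starts mitosis, gave 90.3, 112 and 26.4 in air and 444, 413 and 515 after ozone and rose by 2.50 ± 0.64 (adjusted p = 0.0155). Of the air mice, the third lay lowest. Ube2c, a ubiquitin-conjugating enzyme of the anaphase-promoting complex, gave 172, 201 and 126 in air and 442, 359 and 429 after ozone (1.24 ± 0.20, adjusted p = 0.000337). Mki67, the antigen of dividing cells, gave 166, 135 and 116 in air and 489, 419 and 429.5 after ozone (1.58 ± 0.27). For all 3 genes every ozone mouse was above every air mouse. All 3 met the filter on low values only through 48 h arrays, so they were selected in part for being high there. Birc5 (survivin, 1.68 ± 0.36), the kinase Pbk (1.00 ± 0.19), the Cdk subunit Cks1b (0.96 ± 0.16), cyclin B2 (Ccnb2, 0.99 ± 0.25) and cyclin A2 (Ccna2, 0.78 ± 0.19) rose as well. So did the Cdk subunit Cks2 (0.67 ± 0.14) and Aurora kinase A (Aurka, 0.67 ± 0.20), whose call was lost without any 1 of the 6 arrays. Cdk1 lost its call without the third air array (adjusted p = 0.0913). Ccnb2 and Aurka lost their calls without the second air array (adjusted p = 0.0632 and 0.135). Ccna2 lost its call without the first 48 h array (adjusted p = 0.084).

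Among spindle genes the microtubule bundler Prc1 rose by 1.03 ± 0.18, Nusap1 by 1.33 ± 0.33, the kinesin Kif22 by 1.04 ± 0.28 and topoisomerase Top2a by 0.97 ± 0.25. Of genes that license and copy DNA 4 of 17 rose, with a median of 0.30: Mcm5 (1.08 ± 0.22) and Mcm7 (0.53 ± 0.11) of the replicative helicase, the sliding clamp Pcna (2758, 2404 and 2363 to 4026, 3820.5 and 3703, 0.62 ± 0.10) and the primase subunit Prim2 (0.65 ± 0.18). The kept probe sets of Mcm7 ran from -0.02 to 0.68. Of nucleotide synthesis genes 3 of 9 rose, the ribonucleotide reductase subunit Rrm2 (1.16 ± 0.18), thymidine kinase Tk1 (0.89 ± 0.26) and CTP synthase Ctps (0.74 ± 0.14). The cyclins of the G1 phase and their regulators had 13 of 19 genes above 0 and a median of 0.16. The only 1 that rose was the Cdk inhibitor Cdkn1c (0.68 ± 0.18), and 2 fell, the inhibitors of Cdk4 Cdkn2b (-0.83 ± 0.18) and Cdkn2c (2775, 2086 and 2041 to 1205, 1389 and 1355, -0.79 ± 0.17). The highest change of the list, 0.88 for the Cdk inhibitor Cdkn1a, did not pass, and its 2 kept probe sets ran from 0.21 to 0.88. Cyclin D1 (Ccnd1) was at 0.04 ± 0.15 and Myc at 0.38 ± 0.30. Nusap1, Top2a and Prim2 lost their calls without the first air array (adjusted p = 0.0927, 0.0908 and 0.137). Kif22 and Tk1 lost their calls without the third air array (adjusted p = 0.119 and 0.137). Cdkn1c lost its call without the first 48 h array (adjusted p = 0.137).

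Many cell division genes have low signals in lung, so that only 11 of 19 mitotic and 14 of 32 spindle genes on the array were measured above the filter. Of these 25 genes, 11 were kept only through arrays of mice exposed for 48 h, 2 of them through OuJ arrays alone. They were thus selected in part for being high there, and their counts and medians are descriptions. Cdk1, Ube2c, Mki67, Ccnb2, Pbk, Prc1 and Kif22 are among the 11. Of the members that met the filter without the 48 h arrays, 3 of 5 mitotic and 3 of 9 spindle genes rose. In the same way 2 of 15 replication genes and 2 of 8 nucleotide synthesis genes rose among those kept without these arrays. With a filter on the mean signal 3 mitotic, 2 spindle, 2 replication and 2 nucleotide synthesis genes were called, and with no filter 10 of 19 mitotic and 10 of 32 spindle genes.

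A short element, TTTGAA, lies in the promoters of many genes that peak in mitosis and is known as the cell cycle genes homology region. It is shown in capitals for Ube2c (chr2:164769679-164769978 on the plus strand), Cks1b (chr3:89418242-89418541 on the minus strand) and Mki67 (chr7:135716330-135716629 on the minus strand), the called mitotic or spindle genes with the smallest p that hold it. Where it lies on the opposite strand it reads TTCAAA.
Ube2c: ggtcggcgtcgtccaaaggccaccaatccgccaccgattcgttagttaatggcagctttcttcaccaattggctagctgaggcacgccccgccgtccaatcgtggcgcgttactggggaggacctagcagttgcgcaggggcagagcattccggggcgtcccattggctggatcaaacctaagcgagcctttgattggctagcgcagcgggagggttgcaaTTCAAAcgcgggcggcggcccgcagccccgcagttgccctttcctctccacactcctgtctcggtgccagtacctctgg
Cks1b: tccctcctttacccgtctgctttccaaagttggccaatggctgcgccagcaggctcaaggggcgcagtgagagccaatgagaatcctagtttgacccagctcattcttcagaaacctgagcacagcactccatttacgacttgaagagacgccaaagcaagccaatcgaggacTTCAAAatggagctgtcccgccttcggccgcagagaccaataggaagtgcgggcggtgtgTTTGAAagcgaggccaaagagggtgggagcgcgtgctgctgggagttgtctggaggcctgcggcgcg
Mki67: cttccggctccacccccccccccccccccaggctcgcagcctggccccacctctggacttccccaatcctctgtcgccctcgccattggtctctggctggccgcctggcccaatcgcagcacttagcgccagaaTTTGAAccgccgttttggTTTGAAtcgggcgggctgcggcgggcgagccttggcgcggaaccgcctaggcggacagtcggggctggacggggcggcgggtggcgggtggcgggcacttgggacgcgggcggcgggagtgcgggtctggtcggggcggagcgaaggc
On either strand the letters TTTGAA were in 17.9% of all promoters and 13.9% of those of tested genes. They were in 11 of 14 risen genes of the mitotic and spindle lists with a promoter (78.6%) and in 4 of 6 that did not rise.

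**Figure D3:**
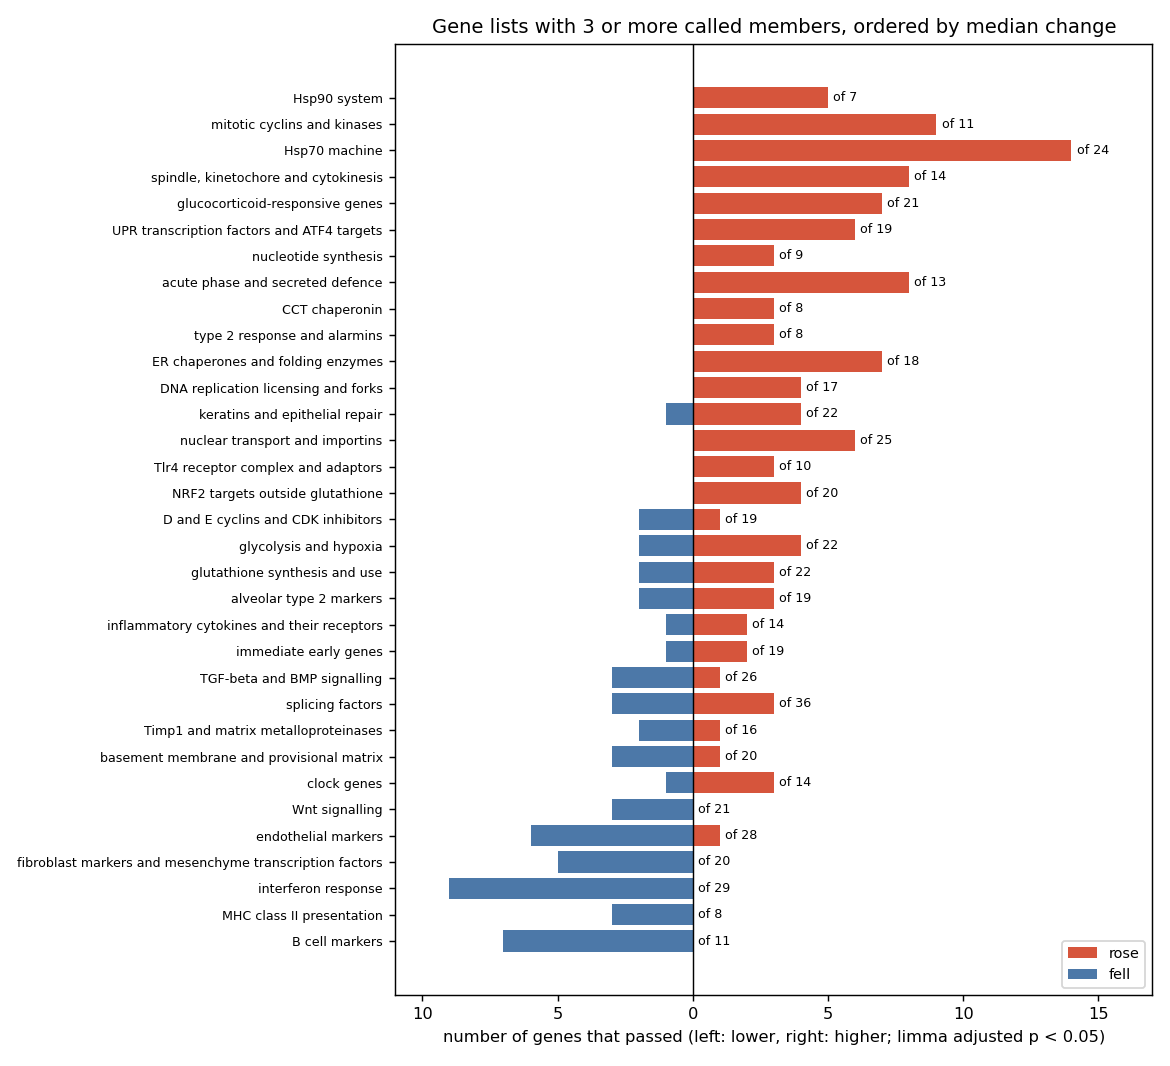
Number of genes that rose (bars to the right) or fell (bars to the left) in OuJ lung after 48 h of ozone, for gene lists with 3 or more genes called, ordered from the highest to the lowest median change. The number measured stands beside each bar, and the Hsp70 machine had 14 of 24 genes higher and the interferon response 9 of 29 lower.

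Of the acute phase and secreted defence list 8 of 13 genes rose and 0 fell, with a median of 0.47. The protease inhibitor Serpina3n gave 489, 504 and 371 in air and 1356, 1794 and 1782 after ozone (1.82 ± 0.21, adjusted p = 8.08e-06). Itih4, a plasma protein of the inter-alpha-trypsin inhibitor family, gave 715, 681 and 635 in air and 1372, 1779 and 2053 after ozone (1.32 ± 0.13, adjusted p = 9.76e-07). Every ozone mouse was above every air mouse for both genes. The glycoprotein Lrg1 (1.50 ± 0.28), the siderophore-binding lipocalin Lcn2 (1.10 ± 0.19), haptoglobin (Hp, 0.44 ± 0.08) and the serum amyloid gene Saa3 (2.69 ± 0.30) rose too, and Lbp and Cd14, described with Tlr4, complete the 8. The letters TTCC and GGAA separated by 1 base, a binding motif of Stat3, were in 1.15% of promoters, in 0 of 7 risen genes of this list and the cytokine list with a promoter and in 2 of 15 that did not rise. Of the complement list 1 of 15 rose, factor B (Cfb, 1.06 ± 0.27), beside 3.7% of all genes. Bpifa1, an airway secretory protein, gave -0.30 ± 0.37 and did not pass. Cfb lost its call without the third air array (adjusted p = 0.115).

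Of 11 neutrophil and monocyte chemokines 1 rose, Cxcl5 (1.93 ± 0.53), whose signals of 0.9, 4.4 and 5.7 in air and 77.5, 47.0 and 54.0 after ozone were low throughout. Its call was lost in 8 of 17 alternative analyses. In the cytokine and receptor list 2 of 14 rose, the receptor chain Osmr (0.68 ± 0.14) and the feedback inhibitor Socs3 (268, 428 and 462 in air and 834, 868 and 1209.7 after ozone, 1.31 ± 0.29), and the interleukin-17 receptor Il17ra fell (-0.45 ± 0.14). The 2 kept probe sets of Il17ra ran from -0.45 to 0.03. Of the type 2 response list 3 of 8 rose. Retnla, a secreted protein of macrophages and airway epithelium, gave 614, 549 and 662 in air and 5091, 4363 and 4604 after ozone, 7.54-fold higher with no overlap, the chemokine Ccl17 rose by 1.12 ± 0.18 and the alarmin Il33 by 0.73 ± 0.19. The prostaglandin synthase Ptgs2 rose by 1.16 ± 0.25, and Hpgd, the enzyme that inactivates prostaglandins, fell from 4403, 4369 and 4244 to 3116, 2560.1 and 1988 (-0.78 ± 0.18). Cxcl5 and Il17ra lost their calls without the first 48 h array (adjusted p = 0.0951 and 0.21). Il33 and Hpgd lost their calls without the third 48 h array (adjusted p = 0.123 and 0.0759).

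Tlr4, the receptor that separates the strains, was itself measured at 208, 254 and 199.9 in air and 286, 253 and 291 after ozone, with overlapping groups (0.31 ± 0.17, adjusted p = 0.284). Of its receptor complex and adaptors 3 of 10 genes rose: the related receptor Tlr2 (0.57 ± 0.12), the coreceptor Cd14 (0.52 ± 0.14) and Lbp, which delivers lipopolysaccharide to Cd14 (0.47 ± 0.13). The adaptor Myd88 gave 0.33 ± 0.12 and did not pass. Among 15 NF-kB subunits and feedback inhibitors only Bcl3 rose, from 54.0, 111 and 109 to 242, 400.4 and 434 (1.82 ± 0.30, adjusted p = 0.000613). Over all genes 3.7% rose. The inhibitor Nfkbia, a standard target of NF-kB, was at 13841, 10892 and 13067 in air and 13928, 13540.2 and 12049.9 after ozone and did not pass (0.07 ± 0.13). Tlr2 lost its call without the third 48 h array (adjusted p = 0.0516). Cd14 lost its call without the first 48 h array (adjusted p = 0.116). Lbp lost its call without the third air array (adjusted p = 0.16). Myd88 gained its call without the second 48 h array (adjusted p = 0.0444).

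Interferon response genes fell in 9 of 29 cases and rose in 0, with a median of -0.35. The antiviral gene Ifit2 gave 366, 328 and 265 in air and 126, 207 and 105 after ozone (-1.09 ± 0.22, adjusted p = 0.00321), and the groups did not overlap. Tap1, which carries peptides to MHC class I, gave -0.82 ± 0.15. Usp18, a brake on interferon signalling, gave -0.61 ± 0.14, the GTPases Gbp2, Ifi47 and Iigp1 -0.63 ± 0.19, -0.72 ± 0.17 and -0.47 ± 0.13, and the immunoproteasome subunits Psmb8, Psmb9 and Psmb10 -0.43 ± 0.13, -0.75 ± 0.23 and -0.59 ± 0.16. Of MHC class II presentation 3 of 8 fell (H2-DMa, -0.61 ± 0.17, H2-Eb1, -0.50 ± 0.13, and H2-Oa, -0.56 ± 0.16), with a median of -0.43. The number of interferon genes lower was 2 without the third 48 h array, and of class II genes 0 without the first. Usp18 and H2-Eb1 lost their calls without the third 48 h array (adjusted p = 0.0568 and 0.0968). Gbp2, Ifi47, Iigp1, Psmb10, H2-DMa and H2-Oa lost their calls without the second air array (adjusted p = 0.176, 0.0687, 0.174, 0.13, 0.145 and 0.218). Psmb8 and Psmb9 lost their calls without the first air array (adjusted p = 0.234 and 0.214).

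Of 11 B cell markers 7 fell and 0 rose, with a median of -0.90. The antigen receptor subunits Cd79a and Cd79b gave 834, 847 and 729 in air and 353, 316 and 379 after ozone, and 753, 1032 and 719.9 in air and 287, 353 and 360.5 after ozone, and fell (-1.17 ± 0.23 and -1.27 ± 0.25, adjusted p = 0.00286 and 0.00284). Every air mouse was well above every ozone mouse for both. The low-affinity IgE receptor Fcer2a (-1.24 ± 0.26), the inhibitory receptor Cd22 (-0.70 ± 0.16), the tetraspanin Cd37 (-1.33 ± 0.36), the coactivator Pou2af1 (-1.09 ± 0.32) and CD20 (Ms4a1, -0.90 ± 0.28) completed the 7. The heavy chain segment Ighv14-2 gave 397, 394 and 488 in air and 82.1, 131 and 86.7 after ozone (-1.95 ± 0.35). Cd37 lost its call without the first 48 h array (adjusted p = 0.096). Pou2af1 lost its call without the third 48 h array (adjusted p = 0.179). Ms4a1 lost its call without the second air array (adjusted p = 0.19). The calls of Pou2af1 and Ms4a1 were lost without any 1 of the 6 arrays.

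The summed signal of the 11 B cell markers was 5515 to 7194 in air and 3466 to 3626 after ozone. For the 8 T cell markers it was 3002 to 3732 and 2423 to 2712, and 2 of the 8 fell, Ms4a4b (663, 522 and 398 in air and 158, 116 and 122 after ozone, -1.86 ± 0.30) and Thy1 (-0.50 ± 0.12). The T cell receptor subunit Cd3g gave -0.65 ± 0.20 (adjusted p = 0.051) and did not pass. For the 6 markers of NK and cytotoxic cells the sum was 2796 to 3613 in air and 1803 to 1947 after ozone, and 1 fell, the granzyme Gzma (-1.18 ± 0.30). In each of these 3 lists the sums of the groups did not overlap. Such separation was not particular to lymphocyte lists. It was also seen in lists with 0 called genes, such as the proteasome 19S cap (23270 to 23705 in air and 24239 to 25118 after ozone). The part of lymphocyte number in the falls of the interferon and class II lists, which moved along with these markers, was not tested. Thy1 lost its call without the first air array (adjusted p = 0.0604). Gzma lost its call without the second air array (adjusted p = 0.0905).

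Of 6 neutrophil markers 2 fell, the calprotectin subunits S100a9 (1361, 909 and 1038 in air and 419, 477 and 301 after ozone, -1.44 ± 0.30) and S100a8 (-1.14 ± 0.32), and the sum of the 6 was 3020 to 3954 in air and 1620 to 2266 after ozone. Of 13 monocyte and interstitial macrophage markers Plac8 fell (-0.75 ± 0.17), beside 4.21% of all genes. None of 12 alveolar macrophage markers passed in limma, 5 had an unadjusted p under 0.05, and their summed signal was 20583 to 22074 in air and 22251 to 23876 after ozone. Marco, a scavenger receptor of these cells, gave low signals of 26.4, 62.7 and 21.8 in air and 64.6, 104 and 197 after ozone, with every ozone mouse above every air mouse (1.34 ± 0.42, adjusted p = 0.0525). Lst1, a leukocyte transcript, fell (797, 584 and 585 in air and 134, 297 and 211 after ozone, -1.59 ± 0.27), as did Tnfsf10 (TRAIL, -1.25 ± 0.25) and Rgs2, a regulator of G protein signalling (2184, 2135 and 1659 in air and 850.5, 667 and 896 after ozone, -1.29 ± 0.14, adjusted p = 5.82e-06). S100a8 lost its call without the third 48 h array (adjusted p = 0.167). Plac8 lost its call without the first air array (adjusted p = 0.0651). Marco gained its call without the first 48 h array (adjusted p = 0.0333).

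Of 20 NRF2 targets outside glutathione metabolism 4 rose: the factor itself, Nfe2l2 (0.74 ± 0.13), Osgin1 (1.07 ± 0.22), the aldo-keto reductase Akr1b8 (0.62 ± 0.13) and thioredoxin reductase Txnrd1 (0.39 ± 0.11). The much used NRF2 targets Nqo1 (0.09 ± 0.19) and Hmox1 (0.76 ± 0.36) did not pass. Of 22 glutathione genes 3 rose and 2 fell. Gclc, the catalytic subunit of the enzyme that opens glutathione synthesis, gave 567, 709.6 and 717 in air and 1661, 1929.5 and 2930.4 after ozone (1.65 ± 0.22, adjusted p = 4.8e-05), with no overlap, while its modifier subunit Gclm was at 0.10 ± 0.19 and did not pass. The peroxidase Gpx2 (0.56 ± 0.14) and the transferase Gsta3 (0.62 ± 0.17) rose and Gstm1 (-0.35 ± 0.10) and Gstm2 (-0.38 ± 0.11) fell. Mitochondrial superoxide dismutase Sod2 rose by 0.35 ± 0.09 and catalase (Cat) fell (-0.55 ± 0.14). The metallothioneins Mt2 (864, 1054 and 868 to 1826, 2299 and 2692, 1.26 ± 0.21) and Mt1 (0.74 ± 0.19) rose, the only 2 of 9 in their list, and the iron exporter Slc40a1 fell (-0.72 ± 0.16). Txnrd1, Mt1 and Slc40a1 lost their calls without the third 48 h array (adjusted p = 0.19, 0.099 and 0.0616). Gpx2, Gsta3 and Cat lost their calls without the first 48 h array (adjusted p = 0.0716, 0.117 and 0.0848). Gstm1 lost its call without the second air array (adjusted p = 0.111). Gstm2 and Sod2 lost their calls without the first air array (adjusted p = 0.14 and 0.106).

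In the epithelium the keratins that pair in simple epithelia rose together. Krt8 gave 2469, 2323 and 2611 in air and 5352, 5326 and 5810.3 after ozone (1.15 ± 0.11, adjusted p = 9.76e-07) and Krt18 gave 1569.8, 1539 and 1885 in air and 3657, 4602 and 2983 after ozone (1.15 ± 0.14, adjusted p = 1.28e-05). The ozone mice were all well above the air mice in both. Sprr1a, a cross-linked envelope protein of squamous epithelium, rose from 171, 126 and 153 to 373, 848 and 621 (1.86 ± 0.27) and galectin-3 (Lgals3) by 0.35 ± 0.09, and the integrin chain Itgb6 fell (-0.77 ± 0.23), so that of 22 genes of keratins and repair 4 rose and 1 fell. Of 19 alveolar type 2 markers 3 rose, the lipid synthesis enzymes Fasn (0.62 ± 0.12) and Scd1 (0.51 ± 0.14) and surfactant protein D (Sftpd, 0.37 ± 0.09), and 2 fell, the fatty acid transporter Cd36 (-0.49 ± 0.14) and the transcription factor Etv5 (-0.71 ± 0.21). Of 15 alveolar type 1 markers 1 fell, the basement membrane collagen Col4a4 (-0.67 ± 0.21), and Ager was at -0.07 ± 0.10. Over all genes 4.21% fell. Of 14 club cell markers 2 rose (Gsta3 and Aldh1a7, 0.38 ± 0.11), and the secretoglobin Scgb1a1 was at 0.03 ± 0.10. The summed signals of the type 2, type 1 and club lists overlapped between the groups, at 193389 to 230367 in air and 216611 to 231240 after ozone for type 2. Lgals3, Itgb6 and Sftpd lost their calls without the second air array (adjusted p = 0.0792, 0.148 and 0.0741). Scd1 and Etv5 lost their calls without the third 48 h array (adjusted p = 0.123 and 0.155). Cd36 lost its call without the third air array (adjusted p = 0.184). Col4a4 lost its call without the first 48 h array (adjusted p = 0.206). Aldh1a7 lost its call without the first air array (adjusted p = 0.187). The calls of Itgb6, Etv5 and Aldh1a7 were lost without any 1 of the 6 arrays.

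Of 28 endothelial markers 6 fell and 1 rose, with a median of -0.18: the VEGF receptors Kdr (4139, 3826 and 3649 to 2846, 2832 and 2348, -0.53 ± 0.15) and Flt4 (-0.40 ± 0.13), the junction proteins Pecam1 (-0.38 ± 0.10) and Cdh5 (-0.38 ± 0.11), Icam2 (-0.53 ± 0.15) and Plvap (-0.44 ± 0.13). The nitric oxide synthase Nos3 rose (0.55 ± 0.16). None of the 6 that fell passed without the first 48 h array. Of 20 fibroblast markers and mesenchyme transcription factors 5 fell and 0 rose, with a median of -0.30. Meis1, a homeobox factor, gave 706, 522 and 713 in air and 175, 311 and 129 after ozone (-1.66 ± 0.21, adjusted p = 2.57e-05), and the T-box factors Tbx2 and Tbx3 gave -0.69 ± 0.12 and -0.41 ± 0.11. The other 2 were Thy1, also a T cell marker, and the ligand Wnt2, which lung mesenchyme makes in development and which fell from 624, 749 and 796 to 401, 356 and 418 (-0.85 ± 0.21). The related ligand Wnt3a (-0.57 ± 0.14) and the receptor Fzd2 (-0.60 ± 0.14) fell as well, 3 of 21 genes of Wnt signalling. No smooth muscle gene of 17 passed in limma, and 6 had an unadjusted p under 0.05. Of 20 collagen chains only Col4a4 was called. Kdr, Flt4 and Tbx3 lost their calls without the third 48 h array (adjusted p = 0.168, 0.15 and 0.0681). The call of Flt4 was lost without any 1 of the 6 arrays. Pecam1 and Cdh5 lost their calls without the first 48 h array (adjusted p = 0.097 and 0.154). Icam2 and Wnt3a lost their calls without the first air array (adjusted p = 0.152 and 0.0661). Plvap, Nos3 and Wnt2 lost their calls without the third air array (adjusted p = 0.194, 0.146 and 0.0546).

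Among matrix regulators the metalloproteinase inhibitor Timp1 rose (248, 323 and 284 in air and 1099, 1385 and 1621 after ozone, 4.57-fold) and the proteases Mmp11 (-0.80 ± 0.20) and Adamts5 (-0.81 ± 0.24) fell. Thrombospondin-1 (Thbs1), a provisional matrix protein, gave 622, 670.2 and 936 in air and 2023, 1952 and 3705 after ozone (1.72 ± 0.23, adjusted p = 6.24e-05), while the laminins Lama3 (-0.52 ± 0.11) and Lama4 (-0.55 ± 0.12) and agrin (Agrn, -0.63 ± 0.13) of the basement membrane fell. In the TGF-beta and BMP list the antagonist follistatin (Fst, 1.19 ± 0.33) rose and the ligands Bmp6 (-0.54 ± 0.11), Tgfb2 (-0.55 ± 0.15) and Gdf10 (-0.70 ± 0.22) fell. Npr3, which clears natriuretic peptides from the blood, rose from 740.1, 562 and 668 to 1865, 1856 and 1844 (1.48 ± 0.22, adjusted p = 0.00017), and the 3 ozone mice lay close together. Mmp11 lost its call without the second 48 h array (adjusted p = 0.0851). Adamts5 lost its call without the third 48 h array (adjusted p = 0.183). Fst lost its call without the first air array (adjusted p = 0.205). It met the filter on low values only with the OuJ 48 h arrays, so it was selected in part for being high there. Tgfb2 lost its call without the first 48 h array (adjusted p = 0.109). Gdf10 lost its call without the second air array (adjusted p = 0.212).

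Some regulators of daily rhythm and of the glucocorticoid response also moved. Of 14 clock genes Nfil3 (20.8, 65.1 and 80.9 in air and 309.8, 208 and 278 after ozone, 2.07 ± 0.52), Per2 (205, 298 and 654 in air and 682, 825 and 1076 after ozone, 1.26 ± 0.29) and Bhlhe40 (0.65 ± 0.20) rose and Dbp, an activator of output genes, fell (2193, 2289 and 1937 in air and 339, 1072 and 859 after ozone, -1.63 ± 0.40). Air mice differed among themselves in Per2 and ozone mice in Dbp. No source used here gives the time of day of tissue collection. Nr1d1, a repressor of the clock, gave 1985, 2336 and 1729 in air and 335, 1460.2 and 1559 after ozone, with 1 ozone mouse far below the other 5 arrays, and did not pass (-1.11 ± 0.43). Of 21 glucocorticoid-responsive genes 7 rose and 0 fell, with a median of 0.62. Zbtb16, a zinc finger factor, gave 147, 161 and 184 in air and 574, 782 and 710.1 after ozone (1.96 ± 0.47, adjusted p = 0.0104), Tsc22d3 (GILZ) rose by 1.11 ± 0.28 and the factors Cebpb and Cebpd by 0.70 ± 0.17 and 0.87 ± 0.26. Lcn2, Mt1 and Mt2 make up the rest, Fkbp5 gave 1.07 ± 0.39 and did not pass (adjusted p = 0.0982), and the number higher was 3 without the third 48 h array. Nfil3, Per2, Tsc22d3 and Cebpd lost their calls without the first air array (adjusted p = 0.0925, 0.0685, 0.0776 and 0.212). Bhlhe40 and Cebpb lost their calls without the third 48 h array (adjusted p = 0.224 and 0.0756). Dbp lost its call without the first 48 h array (adjusted p = 0.1).

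In metabolism and RNA handling, 4 of 22 glycolysis and hypoxia genes rose and 2 fell. Lactate dehydrogenase A (Ldha) gave 2570.1, 2928 and 2667 in air and 4602, 4635 and 4515 after ozone (0.75 ± 0.11, adjusted p = 0.000131), phosphoglycerate kinase Pgk1 0.55 ± 0.13, hexokinase Hk2 0.64 ± 0.17 and the glucose transporter Slc2a1 0.48 ± 0.14. Pfkfb3 (-0.65 ± 0.15) and the pyruvate dehydrogenase kinase Pdk1 (-0.60 ± 0.17) fell, and 0 of 38 respiratory chain genes and 0 of 19 cholesterol genes passed in limma (2 and 5 at an unadjusted p under 0.05). Of 25 nuclear transport genes 6 rose, with a median of 0.25, the importin Kpna2 most (542, 623 and 588 to 993, 1165 and 1251, 0.94 ± 0.11, adjusted p = 5.91e-06) and then Ipo7 (0.66 ± 0.15) and the exportin Xpo1 (0.55 ± 0.14). Splicing factors went both ways: Tra2a (0.69 ± 0.18), Tra2b (0.64 ± 0.18) and Hnrnpc (0.42 ± 0.13) rose and Srsf5 (8759, 7079 and 8532 in air and 3905, 4965 and 3855 after ozone, -0.94 ± 0.13), Hnrnpk (-0.65 ± 0.16) and Hnrnpd (-0.58 ± 0.17) fell, of 36 measured. Kept probe sets of Hnrnpk ran from -0.65 to 0.20 and those of Hnrnpc from -0.03 to 0.42. Pgk1 lost its call without the third air array (adjusted p = 0.0641). Hk2, Slc2a1, Ipo7, Xpo1, Tra2a and Tra2b lost their calls without the first air array (adjusted p = 0.115, 0.116, 0.0516, 0.0834, 0.0721 and 0.159). Pfkfb3, Hnrnpk and Hnrnpd lost their calls without the first 48 h array (adjusted p = 0.0571, 0.118 and 0.123). Pdk1 lost its call without the third 48 h array (adjusted p = 0.232). Hnrnpc lost its call without the second air array (adjusted p = 0.153).

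The 48 h lungs were also compared with OuJ lungs after 24 h of ozone, which lie in the same code series. Here 12 genes passed (0.15%), and all were higher at 48 h. Most are cell division genes: Ube2c (1.78 ± 0.20, adjusted p = 1.96e-05), Ccnb2 (1.73 ± 0.25), Mki67 (1.75 ± 0.27), Kif22 (1.57 ± 0.28), Prc1 (1.32 ± 0.18), Pbk (1.07 ± 0.19), Rrm2 (0.99 ± 0.18) and Cdc20 (0.92 ± 0.19). The securin Pttg1 (1.29 ± 0.13, adjusted p = 1.41e-05) gave signals of 677, 655 and 496 at 24 h and 1540.5, 1380.5 and 1574 at 48 h, against 893, 971 and 895 in air. The PCNA-associated factor Pclaf (1.26 ± 0.20), the transcription factor Tcf19 (0.72 ± 0.14) and the dynactin subunit Dctn2 (0.60 ± 0.12) complete the 12. At 24 h Ube2c was at 110.3, 96.4 and 117, below each 48 h mouse and below every air mouse. Of the 12, 10 had also risen against air, the exceptions being Tcf19 and Cdc20. Of the 12, 6 met the filter on low values only through 48 h arrays: Ccnb2, Kif22, Mki67, Pbk, Prc1 and Ube2c.

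None of these 12 is a heat shock gene. Hsph1 signals at 24 h were 2003, 2225 and 10396, where the third mouse exceeded every 48 h mouse and the other 2 lay below them all, and the difference was 0.71 ± 0.39 (adjusted p = 0.687). The mean change of the 24 Hsp70 machine genes from the air group was 0.73, 0.71 and 1.56 in the 3 mice at 24 h and 1.20, 1.17 and 1.37 at 48 h. For the 11 mitotic genes it was 0.21, -0.13 and -0.30 at 24 h and 1.15, 0.93 and 1.01 at 48 h, but 6 of these genes were kept only through 48 h arrays. Over the 5 mitotic genes that met the filter without those arrays, a comparison added after seeing the data, the mean change was 0.19, 0.02 and -0.08 at 24 h and 0.78, 0.59 and 0.57 at 48 h. Over all 19 on the array with no filter it was 0.01, -0.14 and -0.23, against 0.96, 0.79 and 0.86. In both sets each 48 h mouse lay above each 24 h mouse. B cell markers stood at -1.59 to -0.999 at 24 h and -0.86, -0.90 and -0.76 at 48 h. The 24 h and 48 h values share the same 3 air arrays, so only their difference from each other is free of them. The count of 12 ran from 6 without the first 48 h array to 22 without the third 24 h array, was 3 with a filter on the mean signal, and after median centring of the arrays was 21, of which 52.4% were higher.

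**Figure D4:**
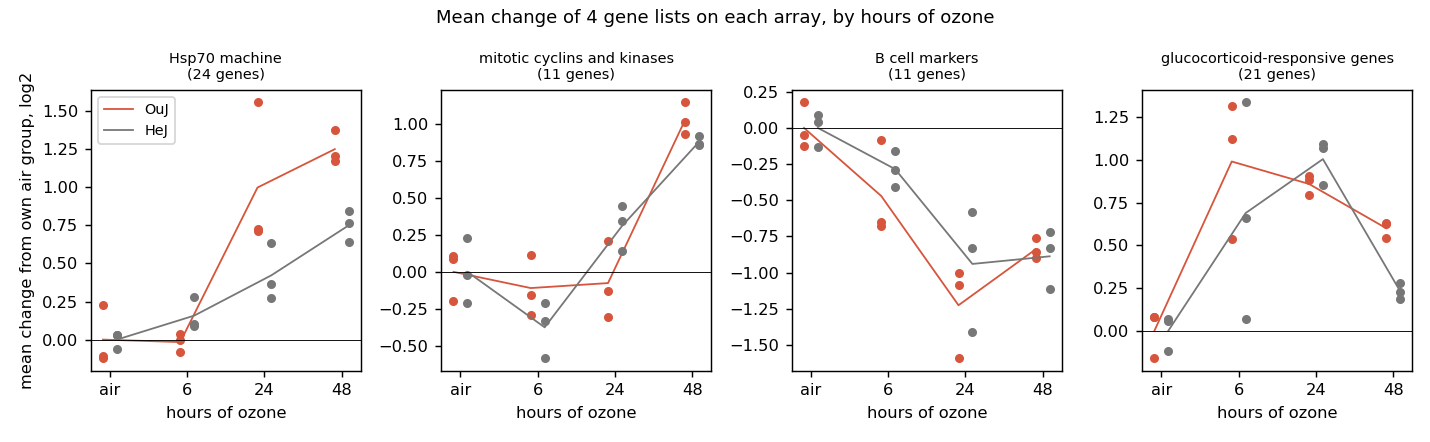
Mean change from the strain's own air group of 4 gene lists, on the log2 scale, in each of the 24 arrays by hours of ozone (evenly spaced, not to scale), with OuJ in red and HeJ in grey. Points are mice and lines join group means. In OuJ the mitotic genes lie at -0.30 to 0.21 after 24 h and at 0.93 to 1.15 after 48 h, and 6 of these 11 genes met the filter only through 48 h arrays.

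The 48 h response of OuJ was last set against that of HeJ mice, with the test of the difference between the 2 changes. No gene passed in limma (0 of 8008, 0%, smallest adjusted p = 0.160), while 658 had an unadjusted p under 0.05. The 5 genes with the smallest p whose change was higher in OuJ were Dll1, Per2, Tef, Rasip1 and Hlf, and Tef and Hlf, like Per2, are clock genes. In OuJ Tef (-0.17 ± 0.12), Rasip1 (0.14 ± 0.11) and Hlf (0.10 ± 0.15) did not pass against air. In HeJ they were lower after ozone, by -0.94 ± 0.12, -0.57 ± 0.11 and -0.83 ± 0.15. Per2 was at 179, 143 and 263 in HeJ after 48 h and 309, 258 and 354 in HeJ air, a change of -0.64 ± 0.29 against 1.26 ± 0.29 in OuJ, and the difference of 1.90 ± 0.41 had an adjusted p of 0.16. The Notch ligand Dll1 rose by 0.78 ± 0.13 in OuJ and gave -0.11 ± 0.13 in HeJ (difference 0.89 ± 0.18, adjusted p = 0.16). The 5 with the lower change in OuJ were Coq4 (-2.06 ± 0.40), Acot9 (-0.67 ± 0.14), Adssl1 (-1.34 ± 0.29), Rab40c (-0.80 ± 0.18) and elastin (Eln, -1.42 ± 0.32), with adjusted p of 0.160 to 0.161, and the kept probe sets of Eln in OuJ ran from 0.29 to 2.09. For Hsph1 the difference was 1.60 ± 0.56 (adjusted p = 0.384), for Dnaja1 1.46 ± 0.39 (0.269), for Saa3 -1.50 ± 0.43 (0.289) and for Mki67 0.05 ± 0.38 (0.987), and none of these passed. In a fit on only the 12 arrays of the 4 groups, 11 genes passed, all with the higher change in OuJ, among them Hsph1 (adjusted p = 0.0213), Dnaja1 (0.0157), Npr3 and Zbtb16 (0.0148 each). With array weights 10 genes passed. HeJ arrays at 48 h belong to another code series than those of OuJ, so this comparison and code series cannot be told apart. The 5′ over 3′ ratio of Gapdh was lower in HeJ, at 0.511 to 0.621 in air and 0.497 to 0.670 at 48 h. In OuJ it was 0.781 to 0.933 in air and 0.824 to 1.03 at 48 h. The part of RNA quality in the strain comparison was not tested.

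**Figure D5:**
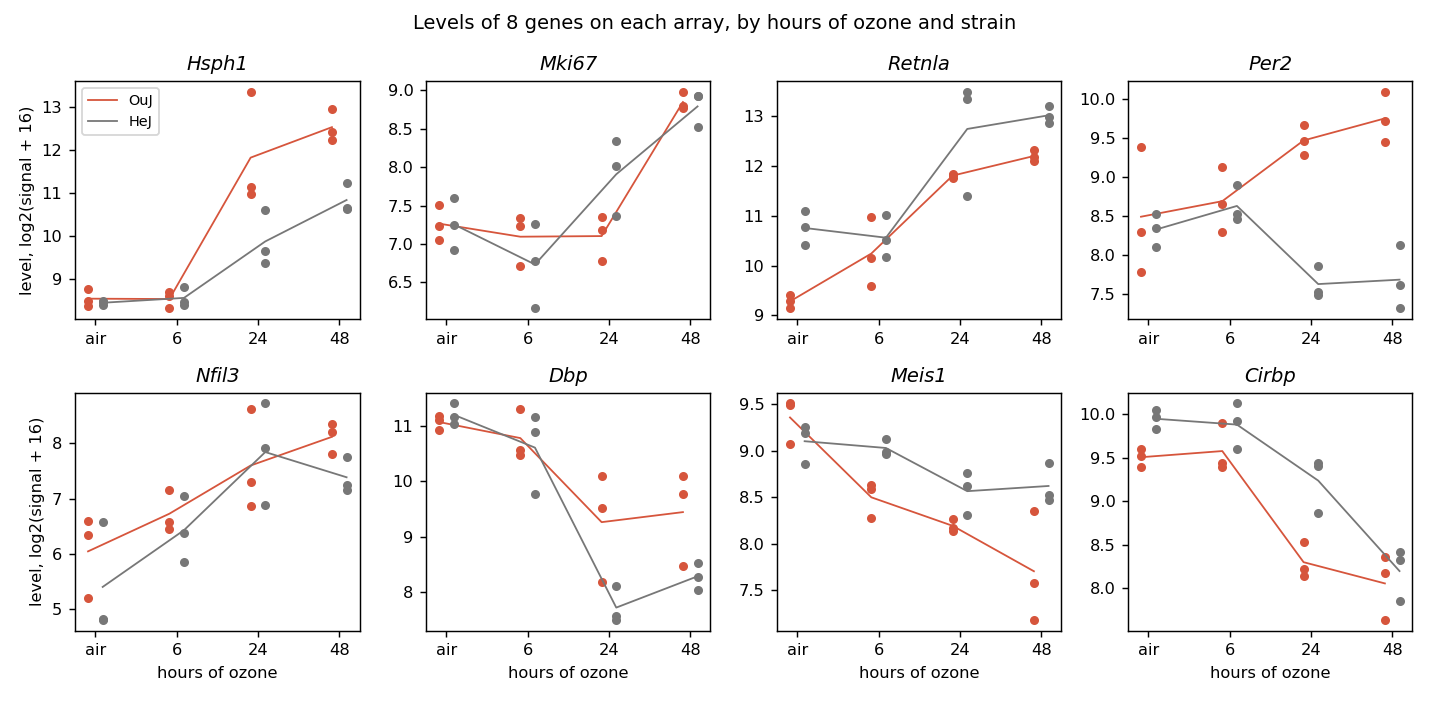
Levels, as log2(signal + 16), of 8 genes in each of the 24 arrays by hours of ozone (evenly spaced, not to scale), with OuJ in red and HeJ in grey. Points are mice and lines join group means. After 48 h the 3 OuJ mice lie above all HeJ mice for Hsph1 and Per2, a difference in level that was not tested. The difference between the strains' changes from air did not pass in limma (adjusted p = 0.384 and 0.160).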

How the data were processed

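Left lung lobes of individual male mice were measured on 24 Affymetrix arrays in 8 groups of 3. TRIZOL and RNeasy columns gave the RNA, of which 7.5 ug was labelled, per the labels' protocols. The deposited values are linear intensities (signals), made by the authors with GCOS 1.4, per the submitters' processing notes, and already scaled: the mean after trimming 2% at each end lay between 500.144 and 500.166 on every array. No detection calls were used here. The table held 0 columns of other samples.

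Of 22690 probe sets, 64 were controls, 20380 named 1 gene (20351 of them matched to RefSeq by gene ID), 691 several and 1555 none in the platform annotation. A probe set was kept if its signal exceeded 218.3, the median over the whole table, on at least 3 of the 24 arrays (11843 kept), and the one with the highest mean stood for its gene, leaving 8008 of 12393 genes. Log2(signal + 16) was computed from the deposited intensities and fitted in limma 3.58.1 (R 4.3.3, data.table version 1.17.8) with all 8 groups, an intensity trend and Benjamini-Hochberg adjustment over all genes, at a threshold of 0.05. The comparisons were OuJ 48 h against air, 48 h against 24 h, and the strain difference of the 48 h change. The fit was tested on simulated data. With 3 against 3 arrays an exact permutation test of a single gene cannot go below p = 0.1 and was not used. Tables and figures were made with Python 3.11.15, pandas 2.3.3 and matplotlib 3.10.9.

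The members and gene lists were chosen with earlier results of these data known. Named were the 12 largest rises and falls with no overlap, list members, up to 10 genes per direction in the other comparisons (5 where none passed), and Tlr4, Marco, Hspa1a and Hspa1b. Same-numbered arrays did not deviate together (r from -0.02 to 0.06 for air and 48 h, and from -0.08 to 0.01 for 24 and 48 h, over genes), so numbers do not pair the samples. Alternatives changed the normalization, pseudocount, filter, probe set rule, trend, array weights, replicate block, arrays fitted and each array in turn. Promoters are those of RefSeq on GRCm38.p6, with 32851 of them searched and 6487 of the tested genes matched by symbol.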

Additional observations from a re-analysis of the deposited data

How the results depend on the processing

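The count of 633 genes between 48 h and air stayed within 1.5 times under the other normalizations, pseudocounts, filters, probe set rule, trend setting and sets of arrays (572 to 740). It was 1165 with array weights, and 286 to 540 with 1 array left out, lowest without the third 48 h array. The count of 12 between 48 h and 24 h was 21 after median centring, 3 with a filter on the mean, 19 without the intensity trend, 27 with array weights, 6 with only the 6 arrays compared, and 6 to 22 with 1 array left out. The share higher among these calls was 80.0% after quantile normalization, 52.4% after median centring, 88.2% with no filter, 84.2% without the trend and 63.0% with array weights. The strain difference gave 10 genes with array weights, 11 with only the 12 arrays compared, and 0 to 2 with 1 array left out. The cause of these shifts was not tested, apart from fewer arrays where arrays were left out.

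With the replicate block the counts were 714, 14 and 0, and since the numbers do not pair the samples this paired fit was not used elsewhere. Of the genes called against air, 220 of 633 passed in every alternative that tested them (129 higher and 91 lower), 202 of them in all 18 and 18 in 17. No gene called against air that the text names changed sign. Among named genes that did not pass, values near 0 changed sign, and none of them passed there: Scgb1a1 was -0.0366 after quantile normalization and -0.0731 to 0.136 with 1 array left out. With 1 array left out Ager was -0.171 to 0.0204, Bpifa1 -0.788 to 0.0725, Ccnd1 -0.000673 to 0.0813, Cryab -0.151 to 0.0218, Nfkbia -0.0326 to 0.14 and Stub1 -0.252 to 0.0343. Genes of low signal, such as Cdk1, Cxcl5 and Marco, lie near the pseudocount, where log2 differences are compressed.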

Other observations

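Genes on no list were also among those called, and those named here were chosen after their values were seen. Their calls with 1 array left out are not given. Cacybp, which binds the calcyclin protein and the ubiquitin ligase Siah1, gave signals of 410.5, 516 and 519 in air and 1785, 1696 and 1889 after ozone (1.87 ± 0.29, limma adjusted p = 0.000323). Maff, a small Maf factor that pairs with NRF2-related proteins, rose by 1.60 ± 0.26, the prolyl hydroxylase subunit P4ha1 by 1.01 ± 0.22, the kinase Riok2 by 1.35 ± 0.33 and the zinc finger factor Klf15 by 1.07 ± 0.30. Among the falls, Elf5, an epithelial ETS factor, gave 505, 573 and 378 in air and 183, 295 and 192 after ozone (-1.08 ± 0.21), the homeobox factor Meox2 -0.97 ± 0.27 and the apelin receptor Aplnr -0.89 ± 0.20. Leukocyte genes outside the cell type lists fell as well, among them Ltb (-0.98 ± 0.25), Coro1a (-0.94 ± 0.19), Cd52 (-0.99 ± 0.24), the chemokine receptor Cxcr4 (-0.69 ± 0.16) and Ptprc (CD45, -0.61 ± 0.16). Albumin (Alb) gave 115, 136 and 101 in air and 287, 192 and 214 after ozone, with every ozone mouse above every air mouse (0.88 ± 0.18, limma adjusted p = 0.00377).

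The mean change of the 21 glucocorticoid-responsive genes from OuJ air was 1.31, 0.54 and 1.12 in the 3 mice at 6 h, 0.79, 0.88 and 0.91 at 24 h and 0.63, 0.54 and 0.62 at 48 h. These times share the same air arrays.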
